A study of Mus musculus with 8 samples.

Results

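Diestrus was compared with every other stage of the estrous cycle in mouse uterus, through the genes for which both diestrus libraries lay above, or both lay below, all 6 libraries of the other stages. Values are CPM, read counts scaled by the normalised library size. Of 31226 genes with a count in any library, 1707 were such diestrus-only peaks and 1318 were diestrus-only troughs. Among the 18114 genes with enough counts to be tested, 1202 were peaks (6.64%) and 1209 were troughs (6.67%). The uteri came from female ICR mice, an outbred stock, aged 6 to 8 weeks. The stage was read from a stained vaginal smear, and no hormone, drug or genetic change is recorded in the labels for any group. Proestrus, estrus, metestrus and diestrus have 2 libraries each, 8 in all, made from polyadenylated RNA of the excised uterus. Separate animals are not named in the labels, so the p-values measure only how far libraries differ, which may be technical.

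The estrous cycle alternates between estrogen, which peaks in proestrus, and progesterone, which the corpora lutea secrete in metestrus and diestrus before they regress. Estrogen acting on the uterus drives luminal epithelial growth, fluid secretion and the release of antimicrobial proteins. Progesterone acts through its receptor in epithelium and stroma, stops epithelial growth and induces a set of stromal regulators and secreted signals. In rodents, metestrus and diestrus together make up this luteal phase.

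The libraries held 17863546 to 21896786 counts, with the smallest total in diestrus library 2. Between the 2 diestrus libraries, 1897 tested genes lay over 2-fold apart on the log2(CPM + 0.5) scale. On the third principal component of log2 CPM, which held 11.43% of the variance, diestrus library 1 scored 71.5 and diestrus library 2 scored -28.1. Summed CPM of 19 smooth muscle genes was 28386 in diestrus library 1 and 12412 in diestrus library 2, against 13464 to 18583 in the others. Summed CPM of 24 epithelial genes was 1666 and 2359 in diestrus, 2281 and 2146 in metestrus, and 5286 to 8408 in proestrus and estrus. For 17 stromal genes it was 6302 and 4961 in diestrus and 4467 to 6709 elsewhere, so these ranges overlapped. The part of cell makeup and of the difference between the diestrus libraries in the results that follow was not tested, and in whole uterus fewer cells of a type and less RNA per cell cannot be told apart. No epithelial, stromal or smooth muscle marker was at 0 in all libraries.

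Against the mean of the 3 other stages, 1074 of 18114 tested genes were higher in diestrus (5.93%) and 1200 were lower (6.62%), with an edgeR quasi-likelihood adjusted p under 0.05. Of the 1202 peaks, 618 passed this test, and of the 1209 troughs 682 did. The rule and the test use the same libraries, so the members' p-values are no independent support for the rule. A further 456 higher and 518 lower genes passed the test without meeting the rule. Most gaps were narrow. The gap between the nearest diestrus library and the nearest other library reached 1.5-fold for 117 peaks and 112 troughs, and 2-fold for 39 and 40. Without the TMM scaling the split was 1613 peaks and 846 troughs, and the median gene then lay 0.10 higher in diestrus on the log2 scale. The counts of called genes also depended on single libraries. Without metestrus library 1 or 2 they were 330 and 329 higher and 527 and 532 lower, without estrus library 1 or 2 they were 456 and 458 higher and 645 and 687 lower, and without proestrus library 1 or 2 they were 516 and 685 higher and 666 and 977 lower. When all 6 other libraries were treated as 1 group, so that differences among the other stages counted as spread, 5 genes were higher (Hif3a, Fst, Zbtb16, Rnf150 and Adarb2) and 0 were lower by edgeR. The unadjusted p was under 0.05 for 919 higher and 1049 lower genes in that fit, and DESeq2, with 1 coefficient per stage, called 1405 and 1781.

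**Figure D1:**
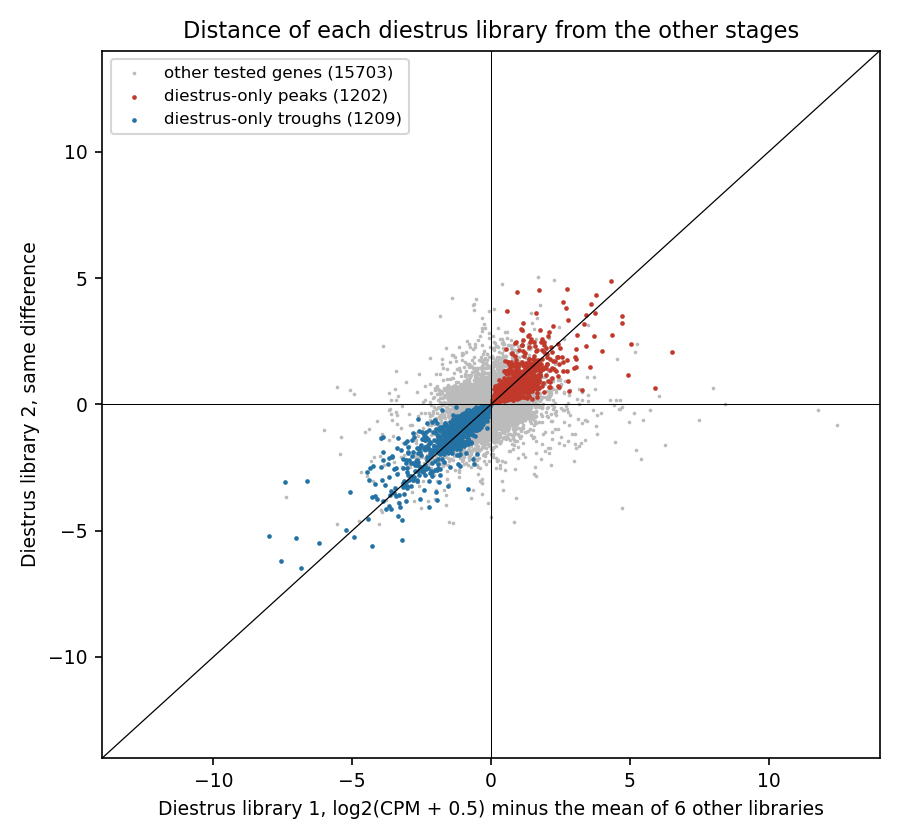
Each point is a tested gene, placed by its log2(CPM + 0.5) in diestrus library 1 (horizontal) and diestrus library 2 (vertical) minus its mean over the 6 other libraries. The 1202 peaks (red) and 1209 troughs (blue) lie in the corners where both libraries share a sign, while grey points spread along either axis moved in 1 diestrus library alone.

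A similar separation was more frequent for the other stages. Both estrus libraries lay above all 6 others for 3003 genes and below them for 2709. The counts were 2030 and 2143 for proestrus and 1894 and 1687 for metestrus. For 429 of the 618 called peaks metestrus was the other stage nearest to diestrus, with estrus nearest for 149 and proestrus for 40. For the 682 called troughs the nearest stage was metestrus for 568, estrus for 98 and proestrus for 16. Tested directly against metestrus, 51 genes were higher in diestrus (0.282%) and 41 were lower (0.226%). Against proestrus 1875 were higher (10.4%) and 2175 lower (12%), and against estrus 1806 (9.97%) and 2511 (13.9%). These comparisons share the diestrus libraries.

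The strictest set held genes past the test in diestrus against each of the 3 other stages separately. It held 28 higher genes (0.155% of those tested) and 24 lower genes (0.132%), and all of them met the rule. These counts depended on every library. They were 0 to 1 higher and 0 to 2 lower when any proestrus, estrus or metestrus library was left out, 99 and 64 without diestrus library 1, and 367 and 306 without diestrus library 2. The 28 higher genes were Aff1, Aff3, Armh4, Ccbe1, Col12a1, Col4a5, Col4a6, Cyp1b1, D630045J12Rik, Fst, Fzd1, Ggta1, Hif3a, Hoxa11os, Il13ra2, Il15ra, Jazf1, Maob, Mmp2, Pi15, Ptger2, Ptger3, Ptger4, Ramp1, Rnf150, Spock2, Sult1a1 and Zbtb16. The 24 lower genes were Arl4c, Cd24a, Col6a4, Dbpht2, Dio2, Elf3, Gdf6, Gjb2, Hrh1, Igkv3-5, Kcnn4, Krt87, Lpl, Lrig1, Mal2, Myb, Nrg1, Nrg2, Phf21b, Prok2, Sfn, Shisa2, Slc40a1 and Spon2.

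Of 198 genes considered one by one that were past the test against the mean of the other stages, 133 kept their call under every alternative that tested them except the fit with all other libraries as 1 group. These alternatives, 14 for nearly all genes, were other scaling, tests and filters, the replicate block, and each library left out. In the fit with all other libraries as 1 group, 194 of the 198 lost their call. The called genes described from here on are among the 133 unless a loss is given. Reads of genes that overlap on opposite strands cannot be told apart here, because the strand setting of the counting is not given, and Hif3a, Fst, Ptger2, Ptger4, Hoxa11, Sult1a1, Elf3 and Myb are among the genes with such a neighbour in GENCODE M21.

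The widest gaps among the named peaks, on the log2(CPM + 0.5) scale, were 2.99 for Hif3a, 2.92 for Zbtb16, 2.59 for Fst and 2.57 for the enzyme gene Cyp1b1. Hif3a, a hypoxia-inducible factor subunit (GRCm38, chr7:17031507-17062427), measured 49.4 and 17.4 CPM in the diestrus libraries. It measured 1.74 and 1.44 in proestrus, 1.75 and 1.34 in estrus, and 0.982 and 1.37 in metestrus. Both diestrus values stood well above a flat level in the other 3 stages, though the diestrus libraries themselves differed. The log2 fold change against the mean of the other stages was 4.54 ± 0.36 (SE, adjusted p = 0.0024). Zbtb16, a zinc finger repressor also called PLZF (chr9:48654297-48836222), measured 132 and 56.9 CPM in diestrus. Its other values were 3.44 and 3.87 in proestrus, 4.95 and 7.07 in estrus, and 4.96 and 4.06 in metestrus. The groups did not overlap, and the log2 fold change was 4.35 ± 0.29 (adjusted p = 0.00145). Fst, follistatin, binds and neutralises activins (chr13:114452290-114458951). It measured 83.4 and 73.5 CPM in diestrus, 8.46 and 4.32 in proestrus, 8.95 and 7.95 in estrus, and 6.61 and 11.8 in metestrus. Here the 2 diestrus libraries lay close together, and its log2 fold change was 3.31 ± 0.26 (adjusted p = 0.0024). Metestrus did not differ from proestrus and estrus past the test for any of the 3 genes, with adjusted p of 0.531 for Hif3a, 0.922 for Zbtb16 and 0.458 for Fst.

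The gaps that followed were 2.28 for Ankfn1, at 6.97 and 3.18 CPM in diestrus against at most 0.257, and 2.21 for Il13ra2. Il13ra2, a decoy receptor for interleukin 13, measured 19.9 and 21.6 CPM in diestrus, and 2.97 and 3.92 in proestrus, 0.4 and 0.155 in estrus and 1.38 and 2.14 in metestrus. Its log2 fold change was 4.11 ± 0.27 (adjusted p = 0.00145). Ednrb, the endothelin B receptor, was at 286 and 77.4 CPM against 12.6 to 25 elsewhere. Maob, monoamine oxidase B (chrX:16709282-16817366), was at 140 and 207 CPM in diestrus. It was at 10.2 and 13.1 in proestrus, 17.0 and 16.3 in estrus and 36.0 and 46.6 in metestrus, so it was already higher in metestrus, where the log2 difference from proestrus and estrus was 1.57 (adjusted p = 0.00354). Against metestrus alone Maob was still 2.07 higher on the log2 scale (adjusted p = 0.0322). Kcnd2, a voltage-gated potassium channel, followed the same order, with 14 and 18.3 CPM in diestrus, 2.54 and 3.85 in metestrus and 0.0513 to 0.55 before. Ramp1 and Calca had narrower gaps, of 0.59 and 0.79. Ramp1, the partner protein of the receptor for the peptide CGRP, measured 130 and 71.3 CPM against 13.5 to 47.1. Calca, which encodes CGRP and calcitonin, measured 0.9 and 1.11 CPM against 0 to 0.31. Angptl7, a secreted angiopoietin-like protein, measured 54.9 and 119 CPM against 3.26 to 16.3, but its call was lost without estrus library 2 (adjusted p = 0.0509).

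**Figure D2:**
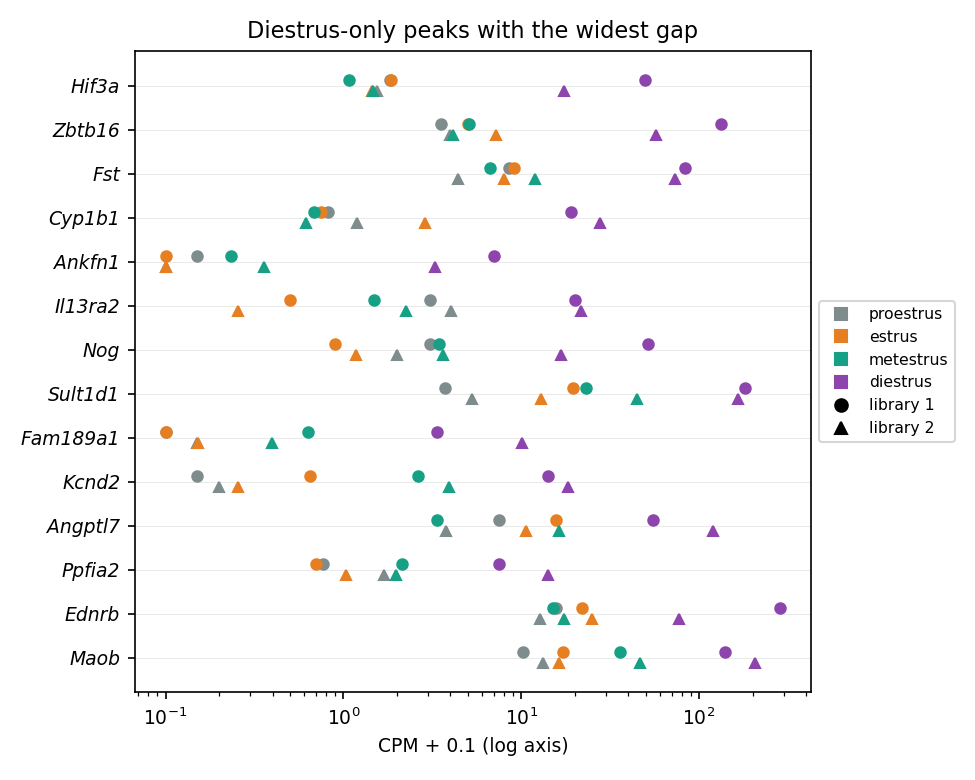
The 14 named peaks with the widest gap, in CPM + 0.1 on a log axis, coloured by stage, with circles for library 1 and triangles for library 2. In each row both diestrus symbols lie right of all 6 others. Hif3a stands at 17.4 and 49.4 CPM in diestrus and at most 1.75 elsewhere.

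Progesterone-responsive genes were the list with the largest share of higher genes among those shown by list. Of 28 named genes 27 were tested, 18 were higher in diestrus (against 5.93% of all tested genes), 0 were lower, and 12 were peaks (6.64%). Lower genes of the list numbered 2 at an unadjusted edgeR p under 0.05 and 1 by DESeq2. The list's median log2 fold change was 1.48, against 0.02 over all tested genes. Fkbp5 and Tsc22d3, which progesterone and glucocorticoid receptors both induce, were chosen here after their values were seen. Fkbp5 measured 98.0 and 53.8 CPM in diestrus against 14.4 to 27.2, and Tsc22d3 measured 238 and 98.6 against 35.0 to 49.6. Errfi1, an inhibitor of EGF receptor signalling, measured 401 and 228 CPM against 87.1 to 170. These 3 genes did not overlap between diestrus and the other stages, and each was higher in diestrus library 1 than in library 2. Other members of the list were also high outside diestrus. Hsd11b2, which inactivates glucocorticoids, measured 771 and 579 CPM in diestrus, 632 and 529 in metestrus and 576 and 788 in proestrus, and was low in estrus alone at 26.1 and 18.3. Over the list, 8 of 27 genes were higher in metestrus than in proestrus and estrus (against 14.4% of all tested genes). In diestrus 2 of the 27 were higher than in metestrus (against 0.282% of all tested genes). These counts share libraries with those above.

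The receptors themselves were not separated. Among 14 steroid receptor genes 2 were lower and none was a peak or a trough. Pgr, the progesterone receptor, measured 237 and 196 CPM in diestrus, 480 and 478 in metestrus, 385 and 337 in proestrus and 69.0 and 60.7 in estrus. Diestrus thus lay between estrus and the other 2 stages, and was 1.15 lower than metestrus on the log2 scale (-1.15, adjusted p = 0.0361). Esr1, the main uterine estrogen receptor, measured 460 and 335 CPM in diestrus against 301 to 464, which overlapped (adjusted p = 0.953).

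Regulators of uterine stroma were among the peaks. Hoxa10 and Hoxa11, homeobox genes that pattern the uterus, measured 324 and 358 CPM and 183 and 184 CPM in diestrus. In metestrus Hoxa10 was at 180 and 177 and Hoxa11 at 76.4 and 90.8, and in proestrus and estrus they were at 78.9 to 118 and 42.6 to 57.1. Diestrus was the highest and metestrus the next in the order of the levels of both genes, and the log2 fold changes against the mean of the others were 1.44 ± 0.13 (adjusted p = 0.00337) and 1.68 ± 0.12 (adjusted p = 0.00189). Hoxa11os, transcribed from the opposite strand of Hoxa11, was also a peak, at 39.9 and 51.4 CPM against 10.5 to 24.0, and cannot be told apart from Hoxa11 with certainty. Hand2, a stromal transcription factor that represses growth signals to the epithelium, measured 52.2 and 79.8 CPM against 17.8 to 39.0. Of 17 stromal genes 9 were higher (5.93% of all tested genes), 1 was lower (6.62%) and 6 were peaks (6.64%), while the matrix genes Dcn and Lum did not differ past the test (adjusted p = 0.753 and 0.858). Hoxa10 and Hoxa11 also stand in another of the gene lists, so the counts of these lists share members. The summed stromal level given above overlapped between diestrus and the other stages.

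Signalling pathways held diestrus-only peaks beside genes already high in metestrus. In the hedgehog pathway, in which epithelial Ihh signals to stromal Ptch1 and Gli1, 9 of 16 tested genes were higher in diestrus (5.93% of all tested genes), none was lower by edgeR, DESeq2 or at an unadjusted p under 0.05 (0 in each), and 4 were peaks (6.64% of all). The pathway's classical members were not diestrus-only. Gli1 measured 52.3 and 178 CPM in diestrus and 156 and 143 in metestrus, against 0.929 to 18.1 in proestrus and estrus, and its call was lost without either metestrus library (adjusted p = 0.0553 and 0.0563). Ihh and Ptch1 lost their calls in 3 and 5 of 14 alternatives. The peaks were Gli3, Boc, Nr2f2 and Hhat. Gli3, a repressor and activator of the pathway, measured 30.6 and 33.2 CPM against 13.2 to 24.6, and Boc, a coreceptor, measured 82.2 and 49.0 against 20.6 to 31.6. Nr2f2 lost its call in 7 of 14 alternatives, and Hhat in 9.

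In the Wnt list 8 of 31 tested genes were higher (5.93% of all tested genes) and 6 were peaks (6.64%). Its 2 lower genes and 2 troughs lay near the shares over all tested genes (6.62% and 6.67%). Fzd1, a Wnt receptor (chr5:4753839-4758035), measured 209 and 199 CPM in diestrus, 90.1 and 85 in metestrus, 66.5 and 63.9 in estrus and 61.3 and 69.1 in proestrus. Its log2 fold change was 1.5 ± 0.08 (adjusted p = 0.00114). The secreted Wnt antagonists Sfrp1 and Sfrp2 measured 73.9 and 61.5 CPM and 134 and 190 CPM in diestrus, against at most 43.2 and 61.4 elsewhere. The ligand genes were split. Wnt4 measured 10.3 and 16.5 CPM in diestrus, below 38.3 to 98.5 in the other libraries, and its log2 fold change was -2.07 ± 0.22 (adjusted p = 0.00411). Wnt7a, an epithelial ligand, measured 3.19 and 11.2 CPM against 28.9 to 53.0, but lost its call without any one of the 6 other libraries (adjusted p = 0.0538 to 0.0768). Wnt11 measured 3.15 and 24.8 CPM against at most 1.52, and its call was lost with limma-voom (adjusted p = 0.061). Wnt6 lost its call in 5 of 14 alternatives, all of them fits without 1 library.

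Of 30 tested genes of BMP and activin signalling 5 were higher (5.93% of all tested genes) and 4 lower (6.62%). The list held 5 peaks (6.64% of all) and 6 troughs (6.67%), and its median log2 fold change was -0.06. Beside Fst, Nog measured 51.7 and 16.6 CPM in diestrus, 3.35 and 3.51 in metestrus, 0.8 and 1.08 in estrus and 2.97 and 1.89 in proestrus, and its log2 fold change was 4.10 ± 0.39 (adjusted p = 0.00364). Chrd measured 41.1 and 23.0 CPM against 7.64 to 15.1. The ligand gene Bmp2 did not differ past the test, at 10.2 and 8.17 CPM against 4.55 to 8.67. Gdf6, a ligand of the same family that was not in the list, measured 0.405 and 0.403 CPM in diestrus and 8.44 and 13.6 in metestrus, the largest contrast with metestrus among the 24 lower genes (log2 -4.75, adjusted p = 0.0226).

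**Figure D3:**
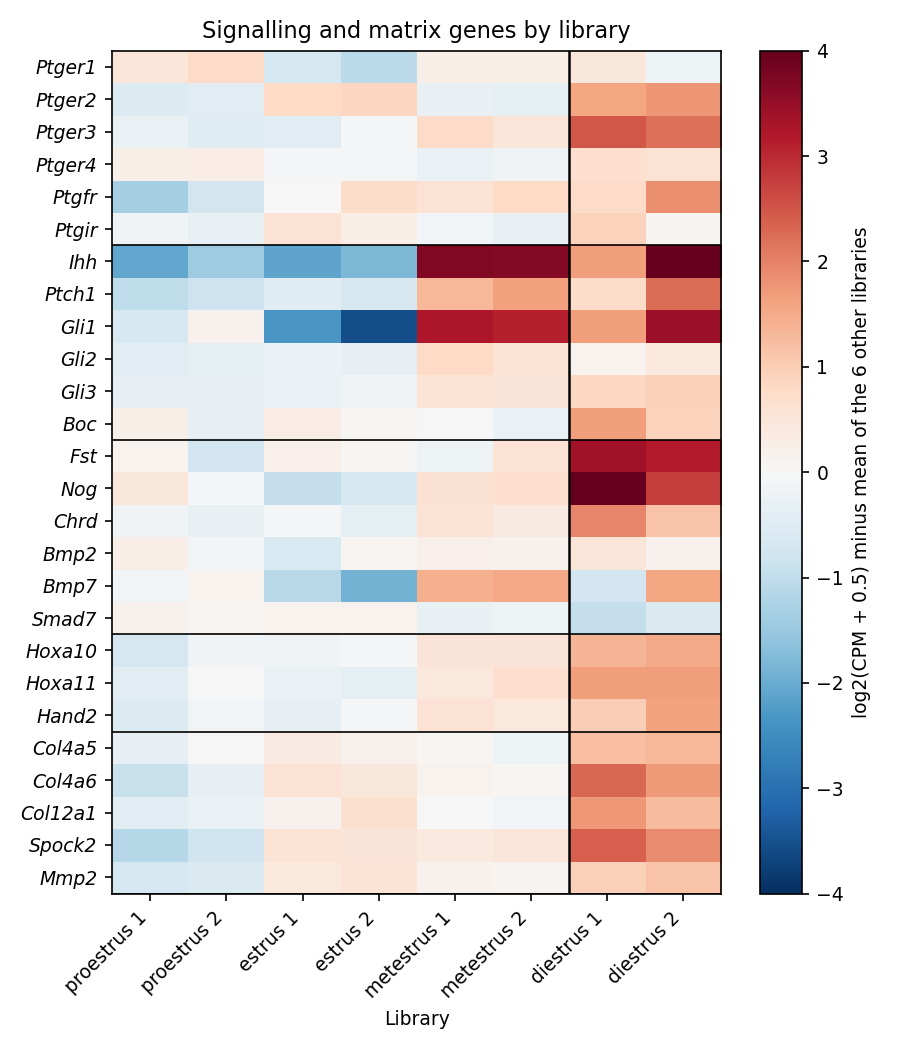
Log2(CPM + 0.5) of signalling and matrix genes in each library, minus the mean of the 6 libraries of other stages, with the colour scale ending at 4 in each direction. Ptger3, Fst, Nog, Hoxa11 and Spock2 are red in both diestrus columns and pale elsewhere, whereas Ihh and Gli1 are also red in both metestrus columns.

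Of the 4 receptors for prostaglandin E2, 3 were peaks past the test against each other stage. Ptger3, which lowers cyclic AMP and promotes contraction (chr3:157566892-157645888), measured 113 and 92.9 CPM in diestrus. It measured 33.9 and 28.0 in metestrus, 14.6 and 18.4 in estrus and 16.2 and 13.9 in proestrus, and its log2 fold change was 2.38 ± 0.13 (adjusted p = 0.00114). Ptger2 and Ptger4 raise cyclic AMP. Ptger2 measured 7.69 and 8.77 CPM in diestrus, 1.70 and 1.63 in metestrus, 4.20 and 4.39 in estrus and 1.38 and 1.49 in proestrus (log2 fold change 1.92 ± 0.17, adjusted p = 0.00313). Ptger4 measured 70.8 and 65.5 CPM against 36.5 to 54.3, a smaller step of 0.64 ± 0.08 (adjusted p = 0.00718). Ptger1 measured 2.07 and 1.16 CPM against 0.413 to 2.68, which overlapped (adjusted p = 0.578). Over the prostaglandin pathway 6 of 25 tested genes were higher (5.93% of all) and 2 lower (6.62%), and Ptges2, a prostaglandin E synthase, was a trough at 19.9 and 26.0 CPM against 33.0 to 47.0. Ptgfr and Ptgs1, the receptor for prostaglandin F2 alpha and a cyclooxygenase, were higher without meeting the rule and lost their calls in 8 and 9 of 14 alternatives.

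Promoter sequence was read for members past the 3 separate tests, because progesterone and estrogen receptors bind known half-sites. The 250 bases before the RefSeq start (table build GRCm38.p6) were searched on both strands for AGAACA (reverse complement TGTTCT), the half-site shared by progesterone and glucocorticoid receptors. AGGTCA (reverse complement TGACCT), the estrogen receptor half-site, was searched in the same way. A single promoter entry was matched for 9916 of the 18114 tested genes. AGAACA was found in 11.3% of these, in 13% of 354 matched peaks past the test and in 9.04% of 376 matched troughs. AGGTCA was found in 10.8%, 10.5% and 8.24%. All of these shares lie near the share over all promoters. Among genes past the 3 separate tests with a matched promoter, AGAACA was found in 3 of 17 higher genes (Ggta1, Ptger2 and Sult1a1) and in 1 of 13 lower genes (Shisa2). AGGTCA was found in 0 of 17 higher genes and in 2 of 13 lower genes (Gjb2 and Sfn). The promoters below show where the letters fall for the 5 of these genes whose values are described here, with the half-site in capitals. Ptger2 lies on the plus strand at chr14:44987861-44988110 and Sult1a1 on the minus strand at chr7:126676419-126676668. Of the troughs, Shisa2 lies on the plus strand at chr14:59625031-59625280, Gjb2 on the minus strand at chr14:57104703-57104952 and Sfn on the minus strand at chr4:133602169-133602418. The RefSeq starts of Ptger2 and Shisa2 did not match a transcript start of these genes in GENCODE M21. In the Sult1a1 window 14 bases lie in an annotated exon of Sult1a1. A match is a run of letters, not a binding site.
Ptger2: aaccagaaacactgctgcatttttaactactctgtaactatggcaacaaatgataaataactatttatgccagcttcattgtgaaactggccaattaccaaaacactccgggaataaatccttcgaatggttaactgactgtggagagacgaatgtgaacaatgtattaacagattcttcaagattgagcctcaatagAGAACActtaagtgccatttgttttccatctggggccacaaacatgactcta
Sult1a1: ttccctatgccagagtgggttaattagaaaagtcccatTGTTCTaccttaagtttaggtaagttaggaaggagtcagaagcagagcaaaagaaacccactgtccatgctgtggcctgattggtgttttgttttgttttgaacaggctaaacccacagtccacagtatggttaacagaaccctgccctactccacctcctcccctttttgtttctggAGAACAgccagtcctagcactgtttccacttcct
Shisa2: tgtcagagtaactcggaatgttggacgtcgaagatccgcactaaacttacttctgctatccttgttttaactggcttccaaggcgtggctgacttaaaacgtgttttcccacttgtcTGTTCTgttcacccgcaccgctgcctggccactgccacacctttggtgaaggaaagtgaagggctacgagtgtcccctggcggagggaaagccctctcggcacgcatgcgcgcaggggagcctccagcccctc
Gjb2: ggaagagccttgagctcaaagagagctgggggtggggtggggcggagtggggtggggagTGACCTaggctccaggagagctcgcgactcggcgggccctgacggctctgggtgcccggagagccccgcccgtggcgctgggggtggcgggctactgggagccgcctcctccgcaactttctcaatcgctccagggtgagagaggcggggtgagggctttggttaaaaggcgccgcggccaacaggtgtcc
Sfn: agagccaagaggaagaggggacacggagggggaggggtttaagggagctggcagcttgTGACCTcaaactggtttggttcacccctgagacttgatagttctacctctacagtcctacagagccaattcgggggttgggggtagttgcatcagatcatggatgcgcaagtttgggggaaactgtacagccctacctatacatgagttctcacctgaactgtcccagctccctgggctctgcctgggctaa

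Enzymes that act on steroids and retinoids also peaked. Cyp1b1, which hydroxylates estradiol (chr17:79701537-79715061), measured 19.0 and 27.7 CPM in diestrus, 0.580 and 0.513 in metestrus, 0.650 and 2.79 in estrus and 0.718 and 1.09 in proestrus. Its log2 fold change was 4.61 ± 0.43 (adjusted p = 0.00364), and metestrus was the lowest of the other stages. The sulfotransferases followed. Sult1d1 measured 181 and 166 CPM against 3.64 to 44.5, with the highest of the other values in metestrus, and Sult1a1 measured 27.4 and 19.1 against 2.46 to 9.81, with the highest in estrus. Of 19 tested steroid-metabolising genes 6 were higher (5.93% of all tested genes) and 1 was lower (6.62%). One of the 6, Hsd11b1, which activates glucocorticoids, was high in diestrus library 1 alone, at 223 and 3.93 CPM, and without that library its log2 fold change was -0.76. Cyp26a1, which degrades retinoic acid, measured 106 and 4.29 CPM in diestrus against 0.103 to 2.53, so that both diestrus values were higher but far apart. Its call was lost with limma-voom (adjusted p = 0.138) and without metestrus library 1 or 2 (adjusted p = 0.0547 and 0.0524). Of 23 tested retinoid genes 6 were lower (6.62% of all tested genes) and 2 higher (5.93%). Rara, a retinoic acid receptor, was a trough at 52.4 and 48.1 CPM against 63.9 to 131.

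Of 22 basement membrane genes 4 were higher (5.93% of all tested genes), 3 were lower (6.62%), 3 were peaks (6.64%) and 1 was a trough (6.67%). Col4a5 and Col4a6, neighbouring X-linked genes for type IV collagen chains, measured 226 and 243 CPM and 192 and 127 CPM in diestrus. The highest other values were 122 and 57.5, both in estrus. Spock2, a matrix proteoglycan, measured 574 and 404 CPM in diestrus, 144 and 151 in metestrus, 160 and 154 in estrus and 49.2 and 62.4 in proestrus (log2 fold change 2.17 ± 0.14, adjusted p = 0.00145). Mmp2, which cleaves type IV collagen, measured 646 and 741 CPM against 206 to 491. The collagen IV gene Col4a1 did not follow: it measured 1187 and 1226 CPM against 1261 to 1640, a trough that did not pass the test (adjusted p = 0.279). Of 27 endothelial and pericyte genes 6 were higher (5.93% of all tested genes), none was lower by edgeR, DESeq2 or at an unadjusted p under 0.05 (0 in each), and 7 were peaks (6.64% of all), among them Emcn at 70.2 and 67.1 CPM against 36.1 to 56.9 and Flt4 at 48.9 and 48.1 against 21.9 to 34.8. Pecam1, a defining endothelial marker, measured 261 and 170 CPM against 134 to 166 and did not pass the test (adjusted p = 0.113). Egfr, the EGF receptor, was a peak at 89.0 and 97.7 CPM against 37.9 to 65.1. Nrg1 and Nrg2, ligands of related ERBB receptors, were troughs, at 10.9 and 7.77 CPM against 26.5 to 60.3 and at 7.65 and 11.3 CPM against 17.6 to 44.7.

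The widest gaps among the named troughs were 2.92 for Gjb2, 2.14 for Shisa2 and 2.11 for Sfn. Gjb2, the gap junction protein connexin 26 (chr14:57098600-57104702), measured 6.16 and 8.07 CPM in diestrus. It measured 64.5 and 64.6 in metestrus, 129 and 269 in estrus and 128 and 126 in proestrus, so diestrus lay far below every other stage, metestrus included. The log2 fold change was -4.05 ± 0.34 (adjusted p = 0.00306), and against metestrus alone it was -3.18 (adjusted p = 0.0314). Sfn, the epithelial protein 14-3-3 sigma (chr4:133600556-133602168), measured 3.10 and 2.92 CPM in diestrus, 22.9 and 15.0 in metestrus, 107 and 113 in estrus and 254 and 210 in proestrus. Each stage stood apart from the next, and its log2 fold change was -4.70 ± 0.23 (adjusted p = 0.00114). Shisa2, which retains growth factor receptors in the endoplasmic reticulum (chr14:59625308-59631660), measured 4.77 and 4.14 CPM in diestrus, 30.0 and 29.5 in metestrus, 26.4 and 22.7 in estrus and 75.2 and 59.5 in proestrus. Diestrus lay below 22.7 CPM, the lowest of the 6 other values, and the log2 fold change was -3.04 ± 0.16 (adjusted p = 0.00114). Elf3, an epithelial transcription factor, measured 34.7 and 34.1 CPM in diestrus, 139 and 94.8 in metestrus and 592 to 1018 before. Myb, a transcription factor of proliferating cells, measured 3.01 and 6.10 CPM against 20.5 to 96.0, and Hrh1, the histamine H1 receptor, measured at most 0.656 against 2.94 to 16.6.

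**Figure D4:**
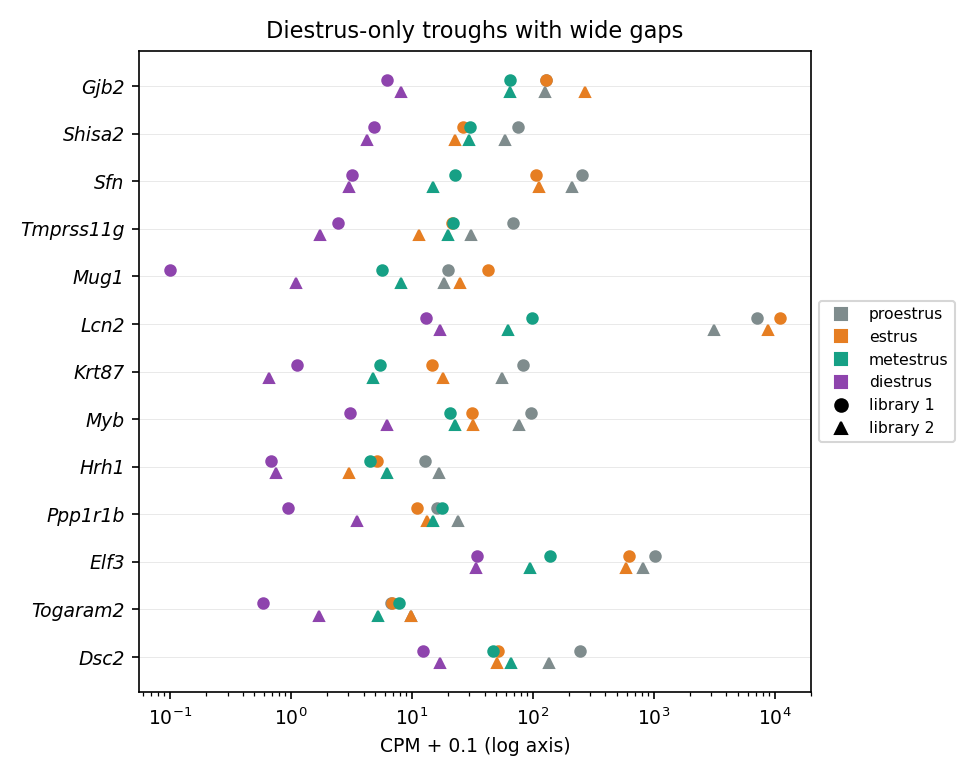
Troughs, 13 of the 14 named for the widest gap, in CPM + 0.1 on a log axis, coloured by stage, with circles for library 1 and triangles for library 2. In each row both diestrus symbols lie left of all 6 others. Lcn2 spans from 13.1 CPM in diestrus to 11200 CPM in estrus, with metestrus between.

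Epithelial identity genes were lower as a group without all being troughs. Of 24 tested genes 10 were lower in diestrus (against 6.62% of all tested genes), 0 were higher and 8 were troughs (against 6.67%). At an unadjusted edgeR p under 0.05, 3 were higher, and by DESeq2 2 were. The list's median log2 fold change was -0.52. Cldn7, a tight junction protein, measured 36.7 and 59.6 CPM in diestrus, 81.3 and 74.0 in metestrus and 251 to 360 before. Tjp3, a tight junction scaffold, measured 15.4 and 28.8 CPM against 39.4 to 253. Epcam measured 163 and 117 CPM against 165 and 169 in metestrus, a separation by a narrow margin, and 460 to 663 in the other stages. Krt18 measured 257 and 133 CPM in diestrus and 151 and 145 in metestrus, which overlapped (adjusted p = 0.405). Cdh1 was lower without meeting the rule and lost its call in 5 of 14 alternatives. Foxa2, a marker of glands, measured 14.3 and 17.3 CPM in diestrus, 15.5 and 16.6 in metestrus and 5.37 to 8.15 before (adjusted p = 0.0506). The same list had 16 of 24 genes lower in metestrus than in proestrus and estrus (against 15.9% of all tested genes). It had 1 gene lower in diestrus than in metestrus (against 0.226%). Markers of squamous epithelium, which lines cervix and vagina, summed to 36.0 and 27.1 CPM in diestrus. The sum was 49.6 and 36.4 in metestrus and 157 to 371 before. Of 16 tested genes of that list 2 were lower in diestrus (6.62% of all tested genes) and 1 was higher (5.93%). Troughs such as Krt87 and Tmprss11g stood at 1.03 and 0.555 CPM and 2.34 and 1.66 CPM in diestrus. The part of squamous epithelium in them was not tested.

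Of 33 tested estrogen-responsive genes 14 were lower in diestrus (6.62% of all tested genes), 4 were higher (5.93%) and 14 were troughs (6.67%), and the median log2 fold change was -2.26. In metestrus against proestrus and estrus, 17 of the 33 were lower (15.9% of all tested genes) and 7 were higher (14.4%), and 3 were lower in diestrus than in metestrus (0.226%). Lcn2, lipocalin 2, which binds bacterial siderophores (chr2:32384633-32388252), measured 13.1 and 16.9 CPM in diestrus, 99.3 and 63.0 in metestrus, 11200 and 8858 in estrus and 7176 and 3133 in proestrus. The 4 stages did not overlap, and the log2 fold change against the mean of the others was -6.74 ± 0.51 (adjusted p = 0.00212). Clca1, a secreted regulator of chloride channels and mucus, measured 8.19 and 28.4 CPM against 64.1 and 107 in metestrus and 1950 to 7118 before. The iron exporter Slc40a1 measured 31.6 and 26.4 CPM in diestrus, 82.8 and 99.6 in metestrus and 532 to 641 before, and was 1.65 below metestrus on the log2 scale (-1.65, adjusted p = 0.0272). Padi1, Padi2 and Padi4, neighbouring genes for enzymes that convert arginine to citrulline, measured 56.0 and 12.0, 56.5 and 41.8, and 11.6 and 7.11 CPM in diestrus, against at least 131, 140 and 18.5 in any other library. Muc1, a membrane mucin, measured 18.6 and 48.7 CPM against 52.2 and 60.4 in metestrus and 374 to 777 before. Ltf, lactotransferrin, met the rule at 24.9 and 313 CPM against 391 to 11483, but the diestrus libraries differed widely and the call was lost in 8 of 14 alternatives. Igf1, among the 4 higher genes, measured 442 and 611 CPM in diestrus, 467 and 549 in metestrus, 415 and 400 in proestrus and 44.3 and 47.5 in estrus, so estrus alone stood apart.

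Genes of the interferon response and of mucosal defence were low in diestrus, with metestrus at a similar level. Of 41 tested interferon-response genes 31 were lower (against 6.62% of all tested genes) and 6 were troughs (against 6.67%), with a median log2 fold change of -1.43. None was higher by edgeR, DESeq2 or at an unadjusted p under 0.05 (0 in each). Between metestrus and the 2 stages before it, 38 of the 41 were lower (15.9% of all tested genes). Between diestrus and metestrus 0 of 41 differed past the edgeR test, and the list's median log2 difference was -0.05. Over all tested genes 0.282% were higher and 0.226% lower in that comparison, so 0 of 41 is near those shares. At an unadjusted p under 0.05, 1 of the 41 was higher and 2 were lower than in metestrus, and DESeq2 called 1 higher and 0 lower. Mx1, an antiviral GTPase, measured 1.08 and 1.51 CPM in diestrus, 2.68 and 2.57 in metestrus and 19.8 to 29.4 before. Irf7, an interferon regulatory factor, measured 10 and 17 CPM in diestrus and 19.6 and 11.9 in metestrus, which overlapped, against 130 to 372 before. Among 29 chemokine genes 9 were lower (6.62% of all), 2 were higher (5.93%) and 7 were troughs (6.67%). Ccl28 and Cxcl17, chemokines of mucosal surfaces, measured 28.2 and 45.9 CPM and 11.5 and 9.58 CPM in diestrus against 46.7 and 48.4 and 16.6 and 11.7 in metestrus, and at least 162 and 156 before. Pigr, which carries immunoglobulin A across epithelium, measured 217 and 94.3 CPM in diestrus, 309 and 241 in metestrus and 542 to 2925 before. In the immune cell lists, none of 16 tested T cell genes and none of 14 NK cell genes passed the edgeR test or DESeq2 (2 T cell genes were higher at an unadjusted p under 0.05). Of 23 macrophage and monocyte genes 6 were lower (6.62% of all tested genes) and 1 was higher (5.93%) by edgeR. In metestrus 10 of the 23 were lower than in proestrus and estrus (15.9% of all tested genes). Between diestrus and metestrus 0 differed, near the 0.282% higher and 0.226% lower of all tested genes. Of 11 neutrophil genes 3 were lower and 0 were higher by edgeR (6.62% and 5.93% of all tested genes), by DESeq2 and at an unadjusted p under 0.05. Of these lower genes 2, Ltf and Padi4, also stand in the estrogen-responsive list. Of 9 mast cell genes 2 were higher by edgeR (5.93% of all tested genes), 5 by DESeq2 and 6 at an unadjusted p under 0.05. Of 18 MHC class II and dendritic cell genes 2, 3 and 8 were, with 0 lower in either list by any of these. DESeq2 called 1405 of the 18114 tested genes higher, and the unadjusted share over all tested genes is not given here.

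Metabolic and transport genes were also among the troughs. Of 29 tested genes of glycolysis and the hypoxia response 10 were lower (6.62% of all tested genes), 1 was higher (5.93%) and 11 were troughs (6.67%), with a median log2 fold change of -0.57. Ldha, which makes lactate, measured 317 and 444 CPM in diestrus, 620 and 617 in metestrus, 788 and 670 in estrus and 1324 and 1080 in proestrus (log2 fold change -1.10 ± 0.17, adjusted p = 0.0126). Aldoc, an aldolase, measured 2.25 and 2.32 CPM against 6.93 to 45.4, and Egln3, an oxygen sensor that marks HIF proteins for decay, measured 7.38 and 5.6 CPM against 11.2 to 494. Slc2a3, the one higher gene of this list, measured 18.2 and 161 CPM against 7.18 to 17.4 and lost its call in 9 of 14 alternatives. Of 22 cholesterol synthesis genes 8 were lower and 4 were troughs, against the same 6.62% and 6.67%. Lpl and Angptl4, an enzyme of lipid uptake and its inhibitor, were both troughs, at 55.2 and 66.1 CPM against 83.0 to 178 and at 37.9 and 49.4 CPM against 73.7 to 159. Among 27 ion and water transport genes 5 were higher (5.93% of all) and 5 lower (6.62%). Cftr, a chloride channel of secreting epithelium, measured 4.23 and 12.5 CPM against 23.2 to 127. The pump gene Atp12a and the calcium-activated chloride channel gene Ano1 went the other way, at 30.9 and 14.1 CPM against 0.667 to 7.19 and at 123 and 158 CPM against 21.4 to 97.2. Dio2, which activates thyroid hormone, was a trough past all 3 separate tests, at 144 and 179 CPM against 424 to 846.

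**Figure D5:**
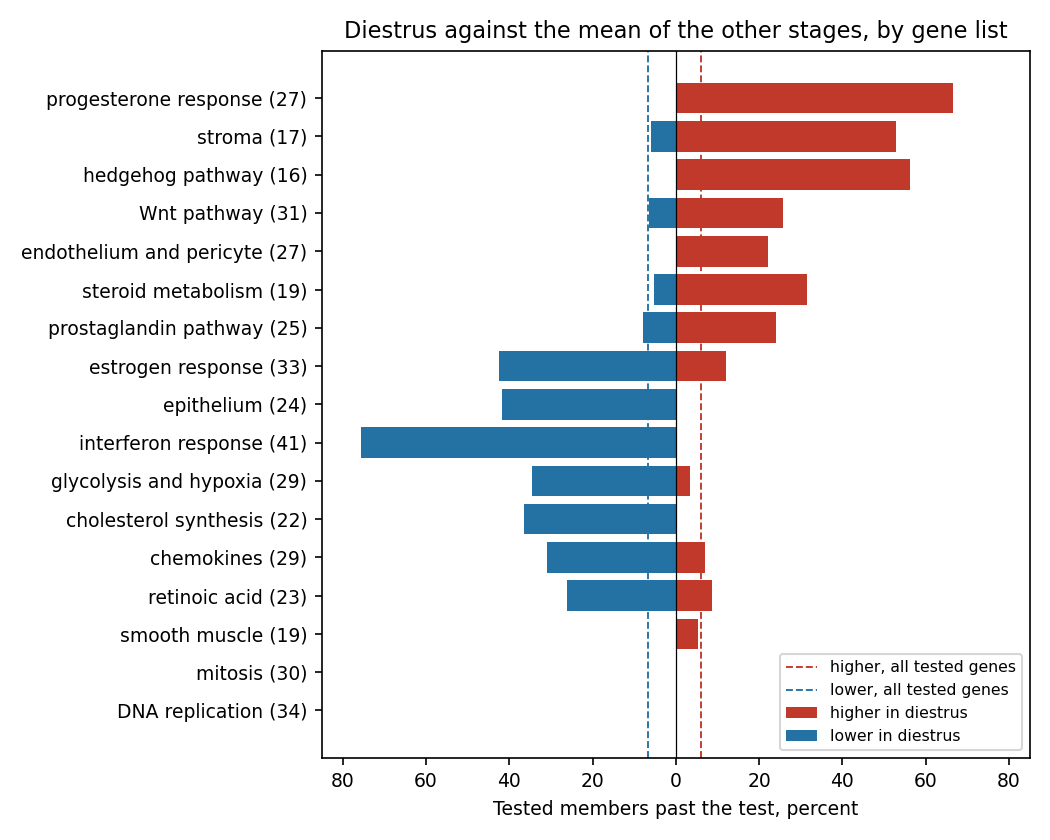
For each gene list (tested members in parentheses), the percent of members higher (right, red) or lower (left, blue) in diestrus than the mean of the other stages at an adjusted p under 0.05. Dashed lines mark the 5.93% and 6.62% of all tested genes. The progesterone response list reaches furthest right, with 18 of 27, and the interferon response list furthest left, with 31 of 41.

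Genes of cell division gave no calls against the mean of the other stages. None of 34 DNA replication genes and none of 30 mitosis genes was a peak or a trough or passed edgeR or DESeq2, and 0 had an unadjusted p under 0.05. Against metestrus alone the medians were -1.02 for replication and -1.23 for mitosis on the log2 scale, against 0.02 over all tested genes. None passed the edgeR test there (0 in each list), while 17 replication genes and 2 mitosis genes were lower at an unadjusted p under 0.05 and 4 and 1 by DESeq2. In metestrus, 28 of the 34 replication genes and 3 of the 30 mitosis genes were higher than in proestrus and estrus (14.4% of all tested genes). The diestrus libraries themselves differed, with summed mitosis CPM of 282 and 896 in diestrus, 1271 and 1414 in metestrus and 223 to 1563 in proestrus and estrus. Myc, which drives growth, was a peak at 141 and 193 CPM against 48.4 to 130. In the family of Fam3d, the gene in the series title, Fam3b and Fam3c were troughs, at 0.09 and 0.151 CPM against 0.491 to 42.3 and at 43.8 and 52.8 CPM against 58.9 to 141. Fam3d, under its older symbol Oit1, was at 23.8 and 6.71 CPM in diestrus and 7.59 and 7.91 in metestrus, which overlapped, and did not pass the test (adjusted p = 0.0888). Fam3a did not differ past the test either (adjusted p = 0.85). Of 19 tested clock genes 1 was higher and 1 was lower, near the shares over all tested genes (5.93% and 6.62%). Per1 was a peak at 81.7 and 65.2 CPM against 18 to 55.8, and Bhlhe40 was a trough at 28.6 and 39.3 CPM against 65.3 to 400.

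Members at the edge of the rule were separated by no margin of size. Tnks, the narrowest peak, had a lower diestrus value of 76.8 CPM and a highest other value of 76.7. Mapkbp1 was the next, with both at 40.2 when rounded, and among the troughs Slc39a9 and Ctnna1 had both at 91.8 and at 315. Of these 4 genes Ctnna1 alone passed the test (adjusted p = 0.04), and it lost its call in 8 of 14 alternatives. Just outside, Scrn3 and Urod missed by less than the rounding, at 19.8 and 43.2 CPM on both sides, and Apoa1 and Cyp2e1 were listed at 0 in diestrus and in another library. The requirement that both libraries stand apart also left out genes that were extreme in 1 diestrus library. Library 1 alone lay above all 6 others for 2103 genes and library 2 alone for 1586, library 1 alone lay below them for 1805 and library 2 alone for 1536, and 254 and 211 genes were above in library 1 and below in library 2 or the reverse. Abcb1b, a drug efflux pump, measured 563 CPM in diestrus library 1 and 1.16 in library 2, and Klk1, a kallikrein protease, measured 326 and 0.706. Npl and Calb1 were the reverse, at 2.52 and 146 CPM and at 2.11 and 188 CPM. Such genes could pass the test on 1 library: Abcb1b had a log2 fold change of 7.92 ± 1.47 (adjusted p = 0.0203), and without diestrus library 1 its adjusted p was 0.998. Klk1 also passed (adjusted p = 0.0269) and lost its call in 8 of 14 alternatives, and without diestrus library 1 its log2 fold change was -0.95. Npl and Calb1 did not pass (adjusted p = 0.0762 and 0.464).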

How the data were processed

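The authors deposited raw counts for each gene, as whole numbers whose totals differ between libraries. Per the submitters' processing notes, STAR and featureCounts of the Subread package were used with GRCm38 (mm10). No version, annotation or strand option was given in the sources used here. GENCODE M21 supplied symbols and coordinates for 52058 of 52308 identifiers. The members, lists and rules were chosen with earlier results of these data known.

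Tests used edgeR 4.0.16 (R 4.3.3). Filtering by stage with filterByExpr kept 18114 genes and left out 34194. TMM factors were 0.8975 to 1.111. One quasi-likelihood fit covered all 8 libraries, a coefficient for each stage, with 4 residual and 2.698 prior degrees of freedom (biological coefficient of variation 0.2501). Diestrus was set against the mean of the 3 other coefficients and against each, and metestrus against the mean of proestrus and estrus, with two-sided tests and Benjamini-Hochberg adjusted p under 0.05 over all tested genes. SEs are the absolute log2 fold change divided by the root of F.

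The gap compares CPM + 0.5 of the nearest libraries. Named genes were the 14 peaks and 14 troughs with the widest gap, the 6 with the smallest p in each direction, up to 4 members per list by p, the 6 strongest in the 3 pair tests, those at the edge of the rule, and the 6 with the largest ratio between diestrus libraries in each direction. The minimum mean was 5 CPM, and names of predicted genes were skipped. Some genes that these rules name are not reported here. The other genes of the strict set, Adarb2 and these genes were chosen after their values were seen: Fkbp5, Tsc22d3, Errfi1, Hsd11b2, Hsd11b1, Pgr, Esr1, Gli1, Ihh, Ptch1, Dcn, Lum, Wnt6, Wnt7a, Bmp2, Gdf6, Calca, Ptger1, Ptgfr, Ptgs1, Pecam1, Cdh1, Krt18, Foxa2, Padi1, Padi2, Igf1, Irf7, Slc2a3 and Cftr.

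Counts were simulated for this contrast (17619 genes tested, 100 genes changed by each fold). Of 4-fold changes 85% were recovered and of 2-fold changes 37%, with 10 false among 132 calls and 0 direction errors. In the simulation each gene had the same mean in proestrus, estrus and metestrus, and the changes were made in diestrus alone. In the data the other stages also differed from each other, so these rates need not hold there. Alternatives were DESeq2 1.42.0 size factors and test, limma-voom (limma 3.58.1), 2 other filters, the replicate number as a block, all other libraries as 1 group, and each library left out. In fits without a library the lone library of its stage is assumed to vary like the others.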

Additional observations from a re-analysis of the deposited data

How the results depend on the processing

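With 2 libraries a stage, counts of called genes are the least stable values. Leaving out 1 library gave 329 to 1420 higher and 527 to 1457 lower genes in diestrus against the mean of the other stages, 0 to 367 and 0 to 306 past all 3 pair tests, 371 to 3819 higher and 442 to 3577 lower in metestrus against proestrus and estrus, and 1261 to 3305 peaks and 1254 to 3014 troughs, a rule that fewer libraries meet more easily. With all other libraries as 1 group, 5 genes were higher and 0 lower. A required gap of 1.5-fold left 117 peaks and 112 troughs, and of 2-fold 39 and 40. Past all 3 pair tests, DESeq2 called 148 higher and 141 lower genes, and no filter on low counts gave 95 and 87. Same-numbered libraries shared no strong deviation, with correlations of deviations between stages from -0.0926 to 0.145. With 2 libraries a stage this cannot settle whether the numbers pair the libraries, and the labels give only the replicate number. With the replicate block, 952 genes were higher and 1245 lower against the mean of the other stages, of which 854 and 1088 were shared with the fit without it, and 18 and 15 passed all 3 pair tests. Other scaling, tests and filters kept the counts against the mean of the other stages within 1.5 times, at 969 to 1405 higher and 1141 to 1781 lower. Of 198 named genes with a call, 65 lost it in at least 1 alternative other than the fit with 1 group, most often without metestrus library 1 (61). Leaving out 1 library, the log2 fold change ran from -2.86 to 6.71 for Aqp8, -0.76 to 5.04 for Hsd11b1, -0.95 to 7.86 for Klk1, -4.27 to 4.67 for Prap1 and -1.48 to 17.74 for Prss29, each lowest without diestrus library 1. It ran from -4.18 to 2.31 for Calb1, -2.17 to 3.68 for Col26a1 and -1.61 to 4.26 for Npl, each lowest without diestrus library 2. The cause was not tested. At these totals a gene with a few counts per library, such as Fam3b in diestrus, is measured with a large counting error, and 34194 genes had too few counts to test.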
